A study of Mus musculus with 6 samples.

Results

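The regions described here are the longest unbroken stretches of tiled probes on a mouse methylation array. All non-control autosomal probes were ordered by their start on mouse build mm9, neighbouring probes with starts at most 500 bp apart were joined into a run, and every run of 14 or more probes was taken, with no filter on signal. This gave 322 long runs among 23907 autosomal runs, and they held 5642 of 167117 autosomal probes. The choice used probe positions only, so no measured value decided which runs were included.

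The samples were pancreatic DNA of mouse offspring aged 12 weeks, and methylation was measured on a tiling array after immunoprecipitation of methylated DNA (MeDIP-chip). One group was the offspring of dams labelled with maternal glucose intolerance, which the series text calls hyperglycemic (3 arrays), and the other was the offspring of dams with normal glucose tolerance (3 arrays). On each array the immunoprecipitated DNA carried Cy5 and input DNA of the same group carried Cy3, with the same dye orientation on all 6 arrays. Strain, sex, the treatment of the dams and the number of animals or litters behind each group are not given in the labels, so a p-value here covers the spread over 3 samples a group and some of that spread may be technical. The arrays are called GI1 to GI3 (maternal glucose intolerance) and NT1 to NT3 (maternal normal tolerance).

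Cytosine methylation in mammals sits mostly at CpG dinucleotides. Most of the genome is CpG-poor and methylated, whereas CpG islands, which often lie at gene starts, are mostly unmethylated in normal tissue. Imprinted regions are an exception, since there the copy from 1 parent carries methylation and the other does not. In MeDIP an antibody against methylated cytosine pulls down DNA fragments, so a high ratio of pulled-down over input DNA goes with methylated and CpG-containing DNA, and a low ratio goes with unmethylated DNA or with DNA that has few CpGs. A fragment spans more than 1 probe, so neighbouring probes share signal, and a long run shows the shape of the signal along the DNA where an isolated probe shows a single point. The pancreas is mostly exocrine acinar tissue with scattered endocrine islets. In such bulk tissue a ratio shared by all cells cannot be told apart from a stronger one carried by some of them.

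The value used throughout is log2 of processed Cy5 (MeDIP) over processed Cy3 (input) signal, set to 0 at the array's median non-control probe. A run mean is the average over the probes of a run, and differences between groups are glucose intolerance minus normal tolerance. The probe annotation gives coordinates only and the gene tables at hand are for a later build, so no gene is named and no sequence is shown.

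Within the long runs 74.7% to 82.7% of input spots were well above background on the 3 glucose intolerance arrays, against 88.8% to 94.8% on the 3 normal tolerance arrays. MeDIP spots were well above background for 80.2% to 86.9% and 80.8% to 82.9%. GI1, GI2 and GI3 were read in 1 scan, NT1 in another, and NT2 and NT3 in a further one, and the red detector was set to 359, 394 and 421 V in these 3 scans. No scan held both groups, so the scan and the group cannot be told apart. Of the arrays, NT1 stood lowest in the average level of the long runs. Run means of the 322 long runs correlated at r = 0.925 to 0.930 among GI1 to GI3, at 0.860 to 0.919 among NT1 to NT3 and at 0.799 to 0.933 for pairs of opposite groups. The points of these correlations are runs, which are not independent replicates.

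Most long runs were only just long enough. There were 110 runs with exactly 14 probes, 78 with 15, 62 with 16, 29 with 17, 10 with 18 and 9 with 19, and 24 had 20 or more, of which 10 had 40 or more. The median run had 15 probes, spanned 3279.5 bp and had a probe every 209 bp, and the shortest and longest spans were 2716 and 40459 bp. Together the long runs covered 1231.7 kb. Just outside the threshold lay 137 runs of exactly 13 probes, with a mean level of -0.10 and a centre 0.73 log2 units above the edges, against -0.16 and 0.34 for the 110 runs of 14 probes just inside it. Chromosome 2 held the most long runs, 39, followed by chromosome 7 with 29 and chromosome 11 with 26, and chromosome 18 held the fewest, 7. Mean levels by chromosome ran from -0.25 on chromosome 6 to 0.17 on chromosome 18.

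Several long runs were close neighbours, with 24 having another long run within 10 kb. On chromosome 2, 5 of them followed each other from 174100927 to 174176708 with 61, 16, 43, 69 and 129 probes, separated by gaps of less than 1 kb. On chromosome 13, 8 lay between 23744017 and 23855897, and on chromosome 7 a run of 30 probes came just before the longest run of all. Such neighbours tile 1 locus in pieces and are not independent of each other.

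**Figure D1:**
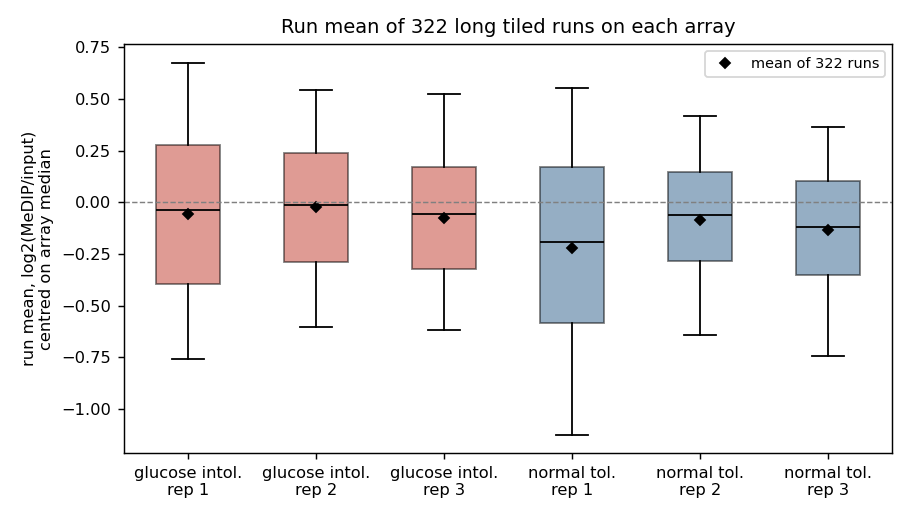
Box plots of the run mean (log2 MeDIP over input, centred on the array median) of the 322 long runs on each of the 6 arrays; the box spans the quartiles, the line is the median, the whiskers reach the 5th and 95th percentiles and the diamond is the mean. The means lie between -0.22 on NT1 and -0.02 on GI2, and the spread between runs is far wider than the gap between arrays.

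On average the long runs sat slightly below the median probe. Averaged over the 322 runs, the level was -0.05 on GI1, -0.02 on GI2 and -0.08 on GI3, and -0.22 on NT1, -0.08 on NT2 and -0.13 on NT3. All 3 glucose intolerance arrays were higher than all 3 normal tolerance arrays, though GI3 and NT2 almost met. The group means were -0.05 ± 0.03 and -0.15 ± 0.07 (SD, n = 3 each), a difference of 0.09 with an exact two-sided permutation p = 0.1, the smallest that 3 arrays against 3 can give. Each channel alone, centred on its own median, differed by 0.0019 (MeDIP) and 0.031 (input). The ratio and the channels are centred separately, and the constant between them differed by 0.12 between the groups over all probes. Differences in MeDIP minus those in input therefore fall short of the run mean differences below by that amount, and centre minus edge values do not depend on it. The difference in level was -0.0049 where MeDIP spots not well above background were raised to the lowest signal above it. Raised values were centred again on each array. That step took the difference of the run starting at chr8:11006558, where all MeDIP spots were well above background, from 0.20 to 0.12. Part of the drop to -0.0049 was therefore a shift of whole arrays and not dim spots in the long runs. The difference in level was -0.0073 after quantile normalization, 0.0089 in the authors' deposited values, 0.055 with run medians in place of means and 0.057 without NT1. Over all 21604 autosomal runs of 3 or more probes the median difference was 0.11, and over the long runs it was 0.10, so the shift was of the same size as on the rest of the array. With dim MeDIP spots raised these medians were 0.0061 and -0.0028.

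The level of single runs was spread over more than 2 log2 units and was stable in sign for most. The run mean was above 0 on all 6 arrays for 84 long runs, below 0 on all 6 for 126, and of mixed sign for 112. Shorter runs were not counted in this way. Only 1 run had a mean level above 1, and 6 were below -1. Between runs the SD of the run mean was 0.35 to 0.54 depending on the array. Inside a run, however, probes differed far more: the SD between probes of a run had a median of 1.02 log2 units and ran from 0.36 to 1.77. Differences between runs made up 10.1% to 13.2% of the variance of the probes in long runs, depending on the array, and the remainder lay between probes of the same run.

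The highest long run lay at chr8:11006558-11009708 (15 probes). Its run mean was 1.47, 1.09 and 1.04 on GI1 to GI3 and 1.21, 1.01 and 0.79 on NT1 to NT3, so it was high on every array and the groups overlapped. All 45 MeDIP spots of either group were well above background there. Of its 15 probes, 11 were above the array median on every array with a value, outlier spots being set to missing. The run at chr2:172373831-172376902 (14 probes) followed with 1.05, 0.86 and 1.01 against 1.02, 0.88 and 0.72. The run at chr11:102178130-102181663 (14 probes) came next with 0.86 ± 0.13 against 0.68 ± 0.24 (SD, n = 3 each). In these runs the groups also overlapped, and 11 and 10 of the 14 probes were above the median on every array with a value.

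The lowest long run lay at chr6:130181395-130184520 (14 probes). Its run mean was -1.31, -1.22 and -1.27 on GI1 to GI3 and -1.94, -1.41 and -1.42 on NT1 to NT3, which placed it low on every array. It was lower on the normal tolerance arrays, mostly on NT1. The group difference of 0.32 did not pass the adjusted threshold and was 0.07 in the authors' deposited values. MeDIP signal was weak in it: 18 of 42 MeDIP spots on GI1 to GI3 and 19 of 42 on NT1 to NT3 were well above background, and with dim MeDIP spots raised the level was -0.52 in place of -1.43. The run at chr7:113220887-113223915 (14 probes) had -1.49, -1.11 and -1.26 against -1.72, -1.33 and -1.27, and that at chr7:30690624-30693981 (15 probes) had -1.41, -1.28 and -1.24 against -1.51, -1.26 and -1.09. Both were low on every array with overlapping groups. Raising dim MeDIP spots left them at -1.09 and -1.08, so they stayed among the low runs. Raised levels include the shift from centring each array again. In the run starting at chr8:11006558, where all MeDIP spots were well above background, that shift took the level from 1.102 to 0.888. Apart from this shift, the low runs therefore rose by more than their raised levels show.

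Low levels also recurred around chr6:130181395-130184520. Within 0.3 Mb of each other on chromosome 6 lay 3 long runs, all with mean levels below -1: this one, the run at chr6:130014889-130018451 (15 probes, -1.25) and the run at chr6:130256318-130259513 (14 probes, -1.02), the last singled out after its values were seen. Input was weak in all 3 as well, at -0.93, -1.11 and -1.46 log2 units relative to the median probe, with 18 of 42, 24 of 45 and 18 of 42 input spots well above background on the glucose intolerance arrays. The part of dim signal in these low levels was not tested beyond the raised values.

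The average profile rose from the ends of a run to the seventh probe inwards. Averaged over the 6 arrays and both ends, the level was -0.25 at the outermost probe, -0.19 at the second, -0.18 at the third, -0.20 at the fourth, -0.09 at the fifth, 0.00 at the sixth and 0.13 at the seventh. The outer 4 positions were therefore nearly level, and the rise came over the fifth to the seventh. The seventh is the innermost position only in runs of 14 probes. In runs of 14 to 19 probes the level was 0.15 at the seventh, 0.07 at the eighth (298 probes) and -0.09 at the ninth (67 probes). The eighth and ninth positions come from the longer of these runs only, so they are not the same set of runs. By group, the outermost probe was at -0.21 ± 0.04 on GI1 to GI3 and -0.30 ± 0.14 on NT1 to NT3, and the seventh at 0.21 ± 0.04 and 0.06 ± 0.04 (SD, n = 3 each). At positions 3, 6 and 7 from the end the 3 arrays of each group did not overlap, whereas at positions 1, 2, 4 and 5 they did. At the outermost probe NT1 was at -0.45 and the other 5 arrays lay between -0.25 and -0.16. The group differences at positions 3, 6 and 7 were 0.13, 0.11 and 0.15, so groups without overlap were not confined to the centre. At position 7 MeDIP signal alone differed by 0.035 and input by 0.013, and the centring constant described above differed by 0.12.

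**Figure D2:**
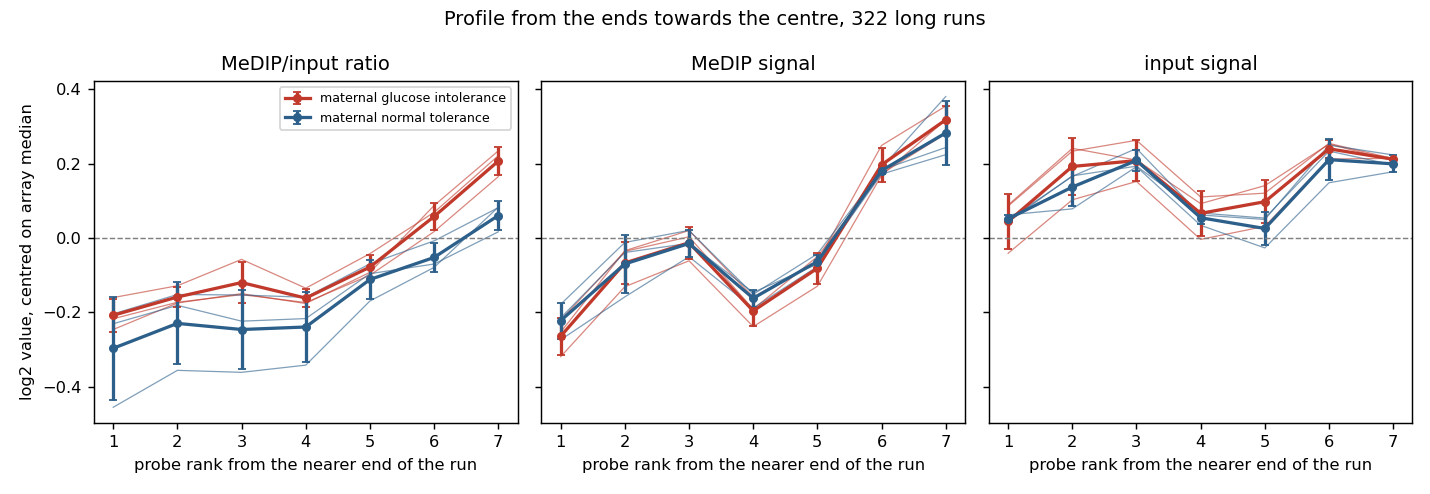
Mean log2 value by probe rank from the nearer end of the run for the MeDIP over input ratio (left), MeDIP signal (middle) and input signal (right); thick lines are group means with SD over 3 arrays, and thin lines are single arrays. The ratio is nearly level over the outer 4 ranks and reaches 0.21 with glucose intolerance and 0.06 with normal tolerance at the seventh.

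To put the profile in 1 number, the mean of the middle 4 probes (3 where the number of probes was odd) was compared with the mean of the 2 outermost probes of each end. This centre minus edge value, averaged over the 322 runs, was 0.39, 0.28 and 0.30 on GI1 to GI3 and 0.42, 0.21 and 0.16 on NT1 to NT3. It was above 0 on 6 of 6 arrays, with a mean of 0.29 ± 0.10 (SD, n = 6 arrays) and an exact two-sided sign-flip permutation p = 0.03125, the smallest that 6 arrays can give. The test covers the spread between arrays and not the choice of probes, since centre and edge are different probes. With normexp background correction the value was 0.16, and with runs joined over gaps of up to 1 kb it was 0.17. With the threshold lowered to 12 probes (801 runs) it was 0.57.

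Both channels were higher at the centre than at the ends, the MeDIP channel more, but neither climbed steadily. Centre minus edge was 0.43 ± 0.10 in MeDIP signal alone and 0.13 ± 0.05 in input signal alone (SD, n = 6 arrays), each above 0 on 6 of 6 arrays. Mean MeDIP signal was -0.24 at the outermost probe, -0.01 at the third, -0.18 at the fourth and 0.30 at the seventh. Mean input signal at these positions was 0.05, 0.21, 0.06 and 0.21, so both channels dipped at the fourth probe. At the outermost position 81.2% of MeDIP spots were well above background on GI1 to GI3 and 80.2% on NT1 to NT3, and at the seventh 86.7% and 85.6%. The part of spot brightness in the profile was not tested beyond the raised values, which gave a centre minus edge of 0.20.

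Single runs did not all follow the average. Centre minus edge was above 0 on all 6 arrays in 142 long runs, below 0 on all 6 in 70 and mixed in 110. The 142 make 44.1% of the long runs, and the same pattern was found in 32.8% of the 12283 runs of 8 to 13 probes. In 79 long runs the mean centre minus edge was above 1, and in 29 it was below -1.

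The size of the central rise depended on the length of the run, and not in 1 direction. Centre minus edge was 0.02 and 0.03 for runs of 8 and 9 probes, 0.62, 0.93, 0.77 and 0.73 for 10, 11, 12 and 13 probes, 0.34, 0.44 and 0.27 for 14, 15 and 16 probes, 0.15, 0.11 and 0.18 for 17, 18 and 19 probes, and -0.04 for the 24 runs of 20 or more probes. Against all runs of 8 to 13 probes the long runs had the larger rise by 0.18 ± 0.08 (SD, n = 6 arrays), larger on 6 of 6 arrays, with an exact sign-flip permutation p = 0.03125, again over arrays and not over probes. Against runs of 10 to 13 probes alone they had the smaller rise, by -0.49. This comparison was added after the data were seen. The direction of a comparison with shorter runs so depends on which of them are taken.

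**Figure D3:**
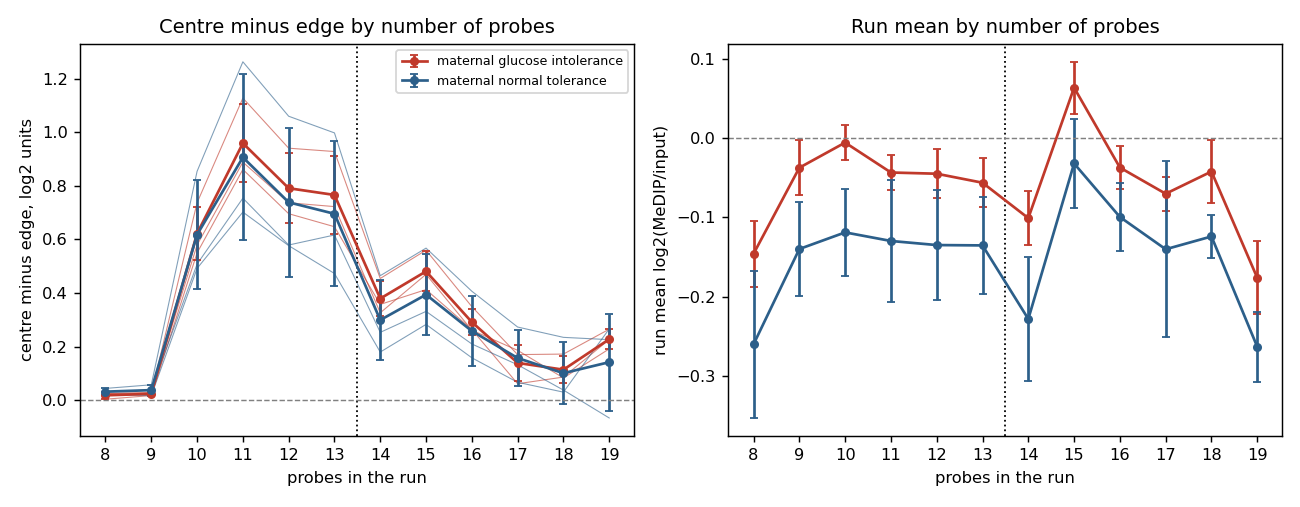
Centre minus edge (left) and run mean (right), both in log2 units, for runs of exactly 8 to 19 probes, as group means with SD over 3 arrays; thin lines on the left are single arrays, and the dotted line marks the threshold of 14 probes. Centre minus edge lies near 0 at 8 and 9 probes, between 0.62 and 0.93 at 10 to 13 and between 0.11 and 0.44 at 14 to 19.

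In the 24 runs of 20 or more probes the profile had no central rise. Their mean level was -0.20 against -0.09 in runs of 14 to 19 probes, and the level by position moved without order, from -0.34 at the outermost probe to -0.06 at the fourth, -0.47 at the sixth and -0.24 at the tenth. Their centre minus edge was -0.01 ± 0.03 on GI1 to GI3 and -0.08 ± 0.18 on NT1 to NT3 (SD, n = 3 each). The wide SD of the second group came from NT1 at 0.13, with NT2 at -0.16 and NT3 at -0.20. In the 298 runs of 14 to 19 probes centre minus edge was 0.32 ± 0.10 (SD, n = 6 arrays).

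In level, the probes of long runs were above those of shorter ones on average. The mean over long runs minus the mean over the 21282 runs of 3 to 13 probes was 0.11, 0.07 and 0.09 on GI1 to GI3 and 0.13, 0.10 and 0.11 on NT1 to NT3. It was 0.10 ± 0.02 (SD, n = 6 arrays), above 0 on 6 of 6 arrays, with an exact sign-flip permutation p = 0.03125, and the groups differed in it by -0.02 (exact permutation p = 0.3). As for the centre and the edges, these are different probes, so the first test covers the spread between arrays and is no test of run length. Probes in long runs were brighter in both channels, by 0.27 ± 0.02 in MeDIP and 0.17 ± 0.01 in input (SD, n = 6). With dim MeDIP spots raised the gap was 0.02, with normexp background correction it was 0.06, and against runs of 10 to 13 probes it was -0.02.

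Neighbouring probes within long runs were correlated, but weakly. The correlation of a probe with the next one in the same run was 0.171 to 0.280 over the 6 arrays, with a mean of 0.242, and fell to 0.111 at a distance of 2 probes, 0.069 at 3 and 0.022 at 6. At the median spacing 1 step is a distance of 209 bp. In runs of 8 to 13 probes the correlation of direct neighbours was 0.203 to 0.300. These values describe probes on the same array, which share its depth and fragment lengths.

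Probe by probe, 1835 of the 5642 probes in long runs (32.5%) were above the array median on every array with a value. Below it on every such array were 1633 (28.9%). Outlier spots were set to missing, so for some probes fewer than 6 arrays counted. No long run had all its probes on 1 side. Runs of at least 5 consecutive probes on the same side on every array with a value were sought within the long runs. This gave 40 stretches above the median in 39 runs and 22 below it in 19 runs. Both kinds were present in 2 runs, and 266 runs had neither. These counts were not taken over the other autosomal probes, so they describe the long runs alone.

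The longest of these stretches was low. It took in 15 probes at chr2:174172660-174175698, near the far end of the run of 129 probes, with stretch means of -2.61, -2.06 and -2.69 on GI1 to GI3 and -2.38, -1.85 and -1.98 on NT1 to NT3. All 6 arrays were below -1.8 and the groups overlapped. A further low stretch of the same run, 6 probes at chr2:174157075-174158293, was at -2.09 ± 0.39 and -1.97 ± 0.57 (SD, n = 3 each). The next low stretch in length was 8 probes at chr3:153573847-153575542, at -1.45 ± 0.21 and -1.35 ± 0.13.

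The longest high stretch took in 10 probes at chr11:102178597-102181237, inside the run at chr11:102178130-102181663 described above. Its means were 1.47, 1.34 and 1.13 on GI1 to GI3 and 1.37, 1.03 and 0.79 on NT1 to NT3, high on every array with overlapping groups. It was followed by 9 probes at chr17:13896938-13898874 (1.11 ± 0.15 and 0.76 ± 0.30) and by 3 stretches of 8 probes, at chr2:129626174-129627900, chr2:172373831-172375561 and chr11:103572387-103574011, with means of 1.04 to 1.20 in both groups. High and low stretches were thus of similar length, apart from the 15 low probes on chromosome 2.

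The 3 longest runs were taken apart into consecutive blocks of 10 probes. The run of 182 probes at chr7:149765780-149806238 had run means of -0.10, -0.06 and -0.17 on GI1 to GI3 and -0.24, -0.12 and -0.19 on NT1 to NT3. Of its probes 52 were above the array median on every array with a value and 57 below. Its 19 blocks ran from -1.61 to 0.46, with 8 above 0 and 11 below. The first 15 blocks stayed between -0.50 and 0.46, and the last 4, from 149799155 to the end at 149806238, were at -0.73, -0.99, -0.88 and -1.61, the last of them with only 2 probes. This run therefore ended in a low portion of about 7 kb on every array. In all 19 blocks the groups overlapped, with differences from -0.29 to 0.32.

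The run of 129 probes at chr2:174147160-174176708 changed level more sharply. Its 13 blocks ran from -2.21 to 0.73. A block at chr2:174153841-174156613 was at 0.90 ± 0.25 on the glucose intolerance arrays and 0.55 ± 0.11 on the others (SD, n = 3 each), and the next one, at chr2:174156808-174159269, was at -1.64 ± 0.29 and -1.46 ± 0.51. Near its end, a block at 0.26 was followed by 2 at -2.21 and -2.12, which hold the stretch of 15 low probes. In 4 of its 13 blocks the groups did not overlap, 3 higher with glucose intolerance by 0.23 to 0.35 and 1 lower, by -0.23. Over all runs of 3 or more probes the groups did not overlap in 22.2%, 17.7% higher and 4.47% lower. No share was taken over blocks elsewhere on the array. The widest difference, -0.65, was in the block at chr2:174172867-174174769, where the groups overlapped. Over the whole run the means were -0.66 ± 0.09 and -0.62 ± 0.19.

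The run of 69 probes at chr2:174130654-174146696, next to it, started at 0.32 in its first block and was below 0 in the other 6, down to -1.15. Its run mean was -0.49 ± 0.04 with glucose intolerance and -0.62 ± 0.31 with normal tolerance. NT1 alone stood apart there, at -0.98 against -0.37 and -0.52 on NT2 and NT3. The groups overlapped in all 7 blocks.

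**Figure D4:**
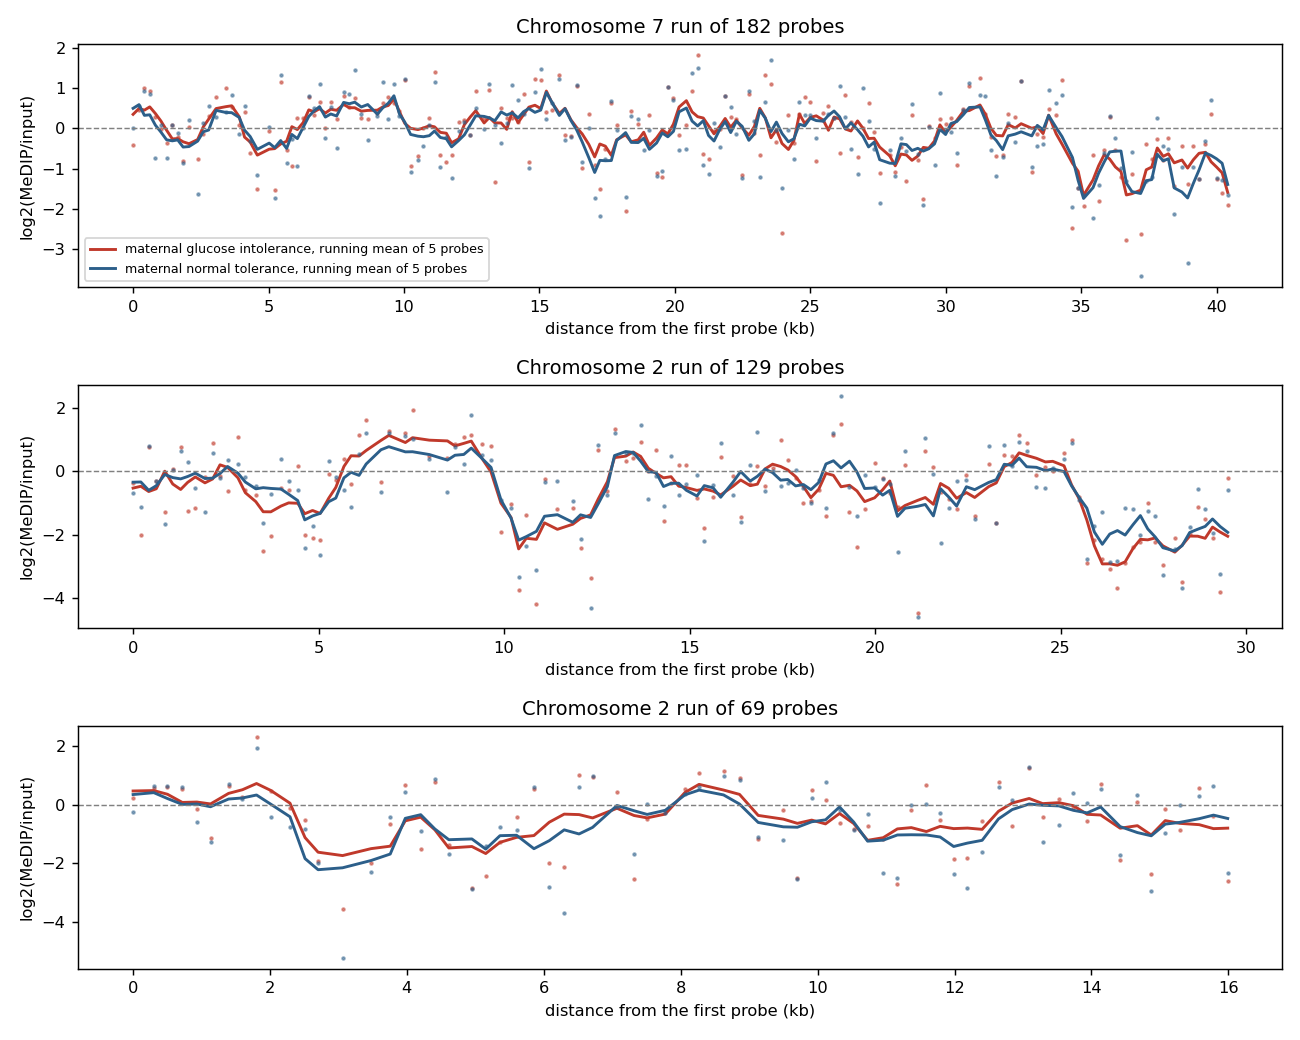
Log2 ratio of MeDIP over input along the 3 longest runs by distance from the first probe (kb); points are group means of single probes over 3 arrays and lines are running means of 5 probes. Both groups follow each other closely, and the run of 129 probes drops near its end, where its lowest block of 10 probes is at -2.21.

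The strongest profiles within single runs were several times the average. Centre minus edge was highest at chr19:34951908-34955192 (16 probes), with 3.57, 2.95 and 3.41 on GI1 to GI3 and 4.11, 2.77 and 2.13 on NT1 to NT3. It was followed by chr3:65331136-65334437 (15 probes, 3.14 ± 0.67 and 2.36 ± 1.40) and chr1:9736435-9739674 (15 probes, 2.44 ± 0.25 and 2.70 ± 1.13). The run means of these 3 were below 0, at -0.51, -0.19 and -0.55, so a high centre stood between low flanks. In the other direction, centre minus edge was -2.24 at chr3:153573432-153577084 (16 probes), where the centre holds the stretch of 8 low probes named above. It was -2.07 at chr6:52162568-52166504 (17 probes) and -1.92 at chr13:23825014-23838932 (65 probes). Every array had the sign of the mean in these 6 runs. With dim MeDIP spots raised the value at chr6:52162568-52166504 was -0.74, at chr3:65331136-65334437 it was 1.49, and at chr1:9736435-9739674 it was 1.71.

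The comparison the series was made for is that between offspring of glucose-intolerant and of normal dams. For the run mean, 0 of 322 long runs passed an adjusted p of 0.05 in limma (Benjamini-Hochberg over 21604 runs), as did 0% of all runs, and the lowest adjusted p among the long runs was 0.210. At an unadjusted p under 0.05 there were 29 long runs (9.01%), against 15.6% of all runs. Of the 29, 27 were higher with glucose intolerance (12.9% of all runs were) and 2 lower (2.7% of all runs were). The groups did not overlap in 70 long runs, 58 higher and 12 lower, against 17.7% and 4.47% of all runs, or 22.2% in both directions together. The difference was above 0 in 236 long runs (73.3%, against 69.1% of all runs). The share of unadjusted calls was below that of all runs, and the shares of higher values and of groups without overlap were near it. The excess of higher over lower runs moved with the processing: with dim MeDIP spots raised 6 of 14 were higher, after quantile normalization 11 of 33, in the authors' deposited values 26 of 52, and with the run median in place of the mean 12 of 21. The split by direction over all runs was not taken in these settings, so the move cannot be set against the rest of the array. The count was 9 without GI2 (2.8%, against 8.73% of all runs), 13 without GI3 (4.04% against 11.5%) and 13 without NT3 (4.04% against 9.38%).

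**Figure D5:**
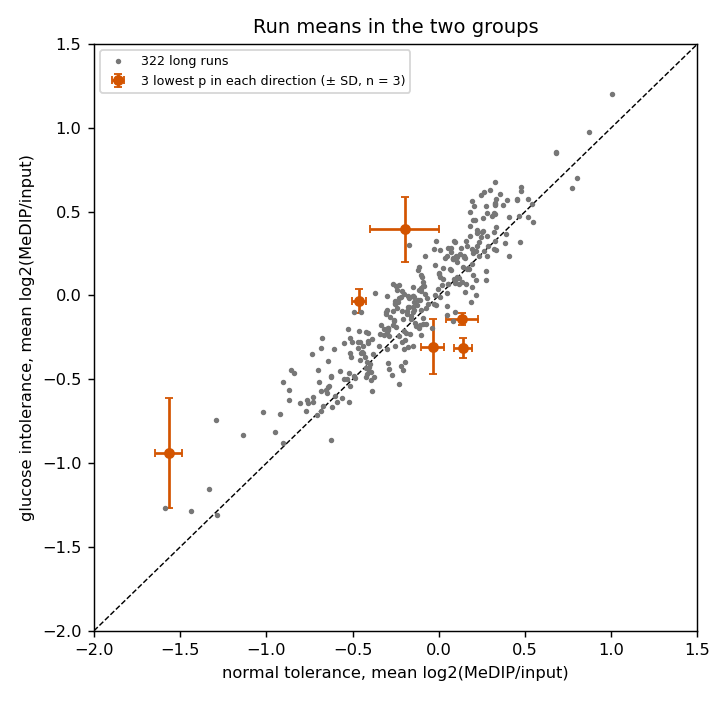
Run mean (log2 MeDIP over input) of each of the 322 long runs, averaged over the 3 glucose intolerance arrays (vertical axis) and the 3 normal tolerance arrays (horizontal axis), with the line of equal values; the 3 runs with the lowest p in each direction are marked with SD (n = 3). Most runs, 236 of 322, lie above the line, and 0 passed an adjusted p of 0.05.

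Among runs higher with glucose intolerance the lowest p belonged to chr10:61910741-61913653 (14 probes). Its run mean was 0.38, 0.60 and 0.20 on GI1 to GI3 and -0.03, -0.15 and -0.42 on NT1 to NT3, so the groups did not overlap. The difference was 0.59 (SE 0.16, limma adjusted p = 0.213), MeDIP signal differed by 0.31 and input by -0.16, and 10 of its 14 probes were higher, by amounts from -1.46 to 2.85. With dim MeDIP spots raised the difference was 0.35, and in the authors' deposited values 0.20, and with normexp 0.18. With the replicate number as a block its adjusted p was 0.0355, and with trended and robust variances 0.0450.

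At chr19:53215946-53218886 (14 probes) the run mean was -0.12, 0.00 and 0.01 on GI1 to GI3 and -0.46, -0.51 and -0.43 on NT1 to NT3, with no overlap. The difference was 0.43 (SE 0.12, limma adjusted p = 0.215), MeDIP signal differed by 0.40 and input by 0.09, and 11 of 14 probes were higher. In the authors' deposited values it was 0.39 (adjusted p = 0.0208) and with normexp 0.36 (adjusted p = 0.0315), and with runs joined over up to 1 kb it was 0.18. Of these 3 runs it had the most MeDIP signal above background: 41 of 42 MeDIP spots in the first group and 35 of 42 in the second, and raising the dim ones gave 0.24.

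At chr6:130014889-130018451, one of the low runs above, the run mean was -1.27, -0.61 and -0.93 against -1.64, -1.58 and -1.48. The difference was 0.63 (SE 0.17, limma adjusted p = 0.215, and 0.0452 with the replicate block), and the groups did not overlap. Well above background were 17 of 45 MeDIP spots in the first group and 9 of 45 in the second, and raising the dim ones gave 0.29, with 0.25 in the authors' deposited values and 0.15 with normexp. Its neighbour chr6:130256318-130259513 differed by 0.55 (adjusted p = 0.233, and 0.0397 with the block). Input signal differed there by -0.42 and MeDIP by 0.0050, and in the authors' deposited values the difference was 0.048.

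The replicate block thus brought 3 long runs past the threshold for the run mean, all 3 higher with glucose intolerance, where 3.8% of all runs passed it. With the scan as a random block 0 passed, 8 (2.48%) had an unadjusted p under 0.05, against 6.63% of all runs, and the lowest adjusted p was 0.726.

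Fewer runs were lower with glucose intolerance. At chr12:85980684-85984082 (15 probes) the run mean was -0.26, -0.37 and -0.30 on GI1 to GI3 and 0.08, 0.15 and 0.19 on NT1 to NT3, which do not overlap. The difference was -0.45 (SE 0.12, limma adjusted p = 0.210), with a MeDIP difference of -0.23 and an input difference of 0.34, and 5 of 15 probes were higher. At chr17:35257362-35260354 (15 probes) the run mean was -0.14 ± 0.04 against 0.13 ± 0.09, a difference of -0.27 (adjusted p = 0.311). At chr6:126114541-126117961 (16 probes) it was -0.31 ± 0.16 against -0.04 ± 0.06, a difference of -0.27 (adjusted p = 0.353). In these 3 runs input was higher with glucose intolerance by 0.31 to 0.34, a larger difference than that in MeDIP. With dim MeDIP spots raised the differences were -0.36, -0.36 and -0.34, and with normexp -0.22, -0.14 and -0.11. The raised values include the shift from centring each array again, which took the run starting at chr8:11006558 from 0.20 to 0.12. The first was -0.22 with dim input left out and the second -0.14 with the run median.

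The shape of the runs was compared between groups in the same way. Averaged over the long runs, centre minus edge was 0.32 ± 0.05 on GI1 to GI3 and 0.26 ± 0.14 on NT1 to NT3 (SD, n = 3 each). The difference of 0.06 (exact permutation p = 0.5) was below the spread of the second group. Without NT1 it was 0.14, without NT3 0.0097, without GI1 0.030 and without NT2 0.033, so its size rests on single arrays. Run by run, 0 of 322 passed an adjusted p of 0.05 in limma (over 12605 runs of 8 or more probes, of which 0% passed). At an unadjusted p under 0.05 there were 40 (12.4%, against 15.5% of all), 23 larger with glucose intolerance (7.17% of all) and 17 smaller (8.34% of all). The difference was above 0 in 172 runs (53.4%, against 49.9% of all). Groups did not overlap in 53 runs, 29 larger and 24 smaller, against 9.68% and 11.3% of all runs, or 21% together. Without NT1, 7 long runs passed the adjusted threshold and 77 the unadjusted one, against 2.4% and 22.3% of all runs. The unadjusted count was 25 without GI1 (7.76%, against 13.1% of all runs) and 20 without NT3 (6.21% against 10%).

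The run with the lowest p was chr2:18598633-18608594 (43 probes). Its centre minus edge was -1.41, -0.55 and -1.09 on GI1 to GI3 and -2.17, -2.09 and -2.05 on NT1 to NT3, a low centre on every array that was lower with normal tolerance without overlap. The difference was 1.09 (SE 0.27, limma adjusted p = 0.122, and 0.0290 with the replicate block). With the run's ends moved by joining over at most 300 bp or up to 1 kb, the difference was 0.24 and 0.32. Raised dim MeDIP spots gave 0.62, dim input left out 0.61, normexp 0.55 and the authors' deposited values 0.52 (adjusted p = 0.0258). Its run mean differed by 0.24 and overlapped.

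At chr11:95005134-95008234 (15 probes) the centre was above the edges on all arrays, by 1.41 ± 0.27 on GI1 to GI3 and 0.59 ± 0.35 on NT1 to NT3, a difference of 0.83 (adjusted p = 0.179). At chr10:80693040-80696283 (14 probes) it was 1.04 ± 0.50 against 0.13 ± 0.30, a difference of 0.91 (adjusted p = 0.181, and 0.0489 with the replicate block). In both the groups did not overlap. At chr11:95005134-95008234 the difference was 0.32 with normexp, 0.25 in the authors' deposited values and 0.53 with dim input left out. At chr10:80693040-80696283 it was 0.05, 0.11 and 0.39 under these settings, and 0.59 with 3 edge probes.

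In the other direction, chr1:132625502-132629011 (16 probes) had -0.96, -0.84 and -0.94 on GI1 to GI3 and 0.50, -0.35 and 0.40 on NT1 to NT3. The centre was below the edges on every glucose intolerance array and above them on 2 of 3 normal tolerance arrays. The difference was -1.10 (SE 0.27, limma adjusted p = 0.126, and 0.0330 with the replicate block), but -0.09 with normexp, -0.11 with dim input left out, -0.24 in the authors' deposited values and -0.66 with dim MeDIP spots raised. At chr4:147411889-147415613 (18 probes) the value was -2.26 ± 0.25 against -1.47 ± 0.36, a difference of -0.79 (adjusted p = 0.192), which was -0.34 with dim MeDIP spots raised, -0.11 with normexp and -0.16 in the authors' deposited values. With runs joined over at most 300 bp, which moves the ends of that run, it was 0.0032. The lowest run of all, chr6:130181395-130184520, had -0.35 ± 0.19 against 0.37 ± 0.14, a difference of -0.72 (adjusted p = 0.188) that was 0.0010 in the authors' deposited values, -0.12 with normexp, -0.09 with dim input left out and -1.25 with dim MeDIP spots raised.

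With the replicate block 4 long runs passed for centre minus edge, 3 larger with glucose intolerance and 1 smaller, where 2.84% of all runs passed. The fourth, chosen after its values were seen, was chr1:157881590-157884714 (14 probes), with 2.12 ± 0.38 against 1.16 ± 0.65, a difference of 0.97 (limma adjusted p = 0.200, and 0.0445 with the block), which was 0.53 in the authors' deposited values. With the scan as a random block 0 passed and 21 (6.52%) had an unadjusted p under 0.05, against 8.84% of all runs.

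Of single probes, 5572 in the long runs could be tested, of which limma called 0 at an adjusted p of 0.05 (adjusted over 165141 probes, of which 0% passed). The lowest adjusted p was 0.077. At an unadjusted p under 0.05 there were 821 (14.7%), against 16.4% of all probes, 486 higher with glucose intolerance (9.66% of all) and 335 lower (6.74% of all). The difference was above 0 in 3266 probes (58.6%, against 60.3% of all). Differences of single probes had a median of 0.10, against 0.12 over all probes.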

How the data were processed

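MeDIP and input DNA were hybridised together on 6 Agilent 2-colour arrays of 180465 spots, 174638 of them non-control. Spot intensity values of both dyes were deposited by the authors, background-subtracted and dye-normalized with Feature Extraction 11.0.1.1, per the file headers. A table of log2 values deposited by the authors was used as an alternative. Its values correlate with the scanner run means of the same array at r = 0.910 to 0.967 over the long runs, which gives the direction MeDIP over input, and its array medians are 0.027 to 0.038. Its background treatment, normalization, centring and smoothing are not given in the sources used here.

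From the intensities, log2 Cy5 over Cy3 was taken and centred on each array's median, with neither loess nor quantile steps. Non-uniformity outlier spots (1.77%) were set to missing. The number of arrays limits the precision. Run means (3 or more probes), centre minus edge (8 or more probes) and probes were fitted with limma 3.58.1 in R 4.3.3 (lmFit, eBayes) over the whole autosomal table, with Benjamini-Hochberg adjustment at 0.05. In simulated data of the same size, with 100 changes of each size, limma recovered 61 run means changed by 1 log2 unit and 98 changed by 2 (21604 runs), and 13 and 79 for centre minus edge (12604 runs). For single probes it recovered 28 changed by 2 log2 units and 80 changed by 4 (153264 probes). The simulated noise was normal and independent between arrays. It held no shift of whole arrays, no scan effect and no shared deviation of same-numbered arrays. The widest run mean difference among the long runs was 0.63, below the smallest change simulated for run means. Recovery of differences of that size was therefore not shown. Values per array were compared by exact two-sided permutation tests.

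Runs named were the 3 with most probes, the 3 highest and 3 lowest in run mean and in centre minus edge, and the 3 lowest p in each direction in both fits. The members, this rule and the alternatives were chosen with earlier results of these data known.

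Replicate numbers come from the labels, which name no shared litter or batch. Deviations of same-numbered arrays from their group means correlated at r = 0.50, 0.42 and 0.15 over 21604 runs, so a fit with the replicate number as a block is given where it changes a call. Alternatives covered background (normexp, offset 50, on median signals, since mean signals were not used here), normalization, centring, dim spots, gaps, probe minimum, edge width, scan as a random block and leaving out each array.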

Additional observations from a re-analysis of the deposited data

How the results depend on the processing

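Run mean calls among the 322 long runs (0) became 4 with normexp and 4 in the authors' deposited values, where 3.06% and 7.97% of all runs passed. They became 3 with the replicate block, whose share of all runs is given above. With trended and robust variances there was 1, and the share of all runs under that setting is not given here. On leaving out any array there were 0. Centre minus edge calls (0) became 1 with normexp and 37 in the authors' deposited values, where 0.785% and 13.1% of all runs passed. They became 4 with the replicate block, and 0 to 7 on leaving out 1 array. Probe calls (0) became 211 with normexp, 14 with quantile normalization, 425 in the authors' deposited values and 10 with trended and robust variances, where 4.4%, 0.216%, 8.55% and 0.163% of all probes passed, and stayed 0 with the replicate block.

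At an unadjusted p under 0.05 the run mean count was 29 (9.01%, against 15.6% of all runs). It became 59 with normexp (18.3% against 26.0%) and 52 in the authors' deposited values (16.1% against 28.8%). With dim MeDIP raised it was 14 (4.35% against 13.1%), and with gaps of at most 300 bp 10 (7.52% against 15.1%). With 12 or more probes it was 60 (7.49% against 15.6%), and with 20 or more 1 (4.17% against 15.6%). With scan as a random block it was 8 (2.48% against 6.63%), and on leaving out 1 array 9 to 37. The centre minus edge count was 40 (12.4% against 15.5%). It became 67 with quantile normalization (20.8% against 20.5%) and 96 in the authors' values (29.8% against 30.1%). With 300 bp it was 19 (14.3% against 15.9%), with 12 or more probes 90 (11.2% against 15.5%) and with 20 or more 3 (12.5% against 15.5%). With the replicate block it was 62 (19.3% against 20.8%) and with the scan block 21 (6.52% against 8.84%). On leaving out 1 array it was 20 to 77.

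The level difference was -0.0073 with quantile normalization and -0.0049 with dim MeDIP raised and each array centred again. With the replicate block it stayed 0.094 (sign-flip permutation over 3 pairs, p = 0.25, the smallest possible). With 20 or more probes, centre minus edge was -0.044 (exact p = 0.344), long minus shorter runs -0.0041, and the excess of centre minus edge over runs of 8 to 13 probes -0.160. Against runs of 10 to 13 probes the last 2 were -0.0177 and -0.486. That excess was 0.109 with dim MeDIP raised (exact p = 0.0625). On leaving out 1 array, centre minus edge was 0.267 to 0.320 and long minus shorter runs 0.0948 to 0.107, each with an exact permutation p = 0.0625, the smallest that 5 arrays can give. Of 233 pairs of a named difference and an alternative 2 reversed, chr4 147411889 at 0.0032 with 300 bp and chr6 130181395 at 0.0010 in the authors' values, and 9 passed the adjusted threshold. In 38 the difference shrank by over 1.5 times or reversed. This was most often with normexp (11 of 12), in the authors' values (8 of 12), and with dim MeDIP raised or dim input left out (6 of 12 each). Normexp also lowered values that are not group differences. Centre minus edge over the long runs went from 0.29 to 0.16, and long minus shorter runs from 0.10 to 0.06. For normexp this count therefore cannot tell a change of scale from a loss of the group difference. Weak MeDIP signal limits the low runs, and input was weak in some of them too. Their levels are therefore uncertain where spots were not above background.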
